A study of Mus musculus with 10 samples.

Results

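Marker genes of lung capillary cells, 10 in all, were followed: 7 of aerocytes (Car4, Fibin, Tbx2, Emp2, Prx, Cyp4b1 and Chst1) and 3 of general capillary cells (Glp1r, Kit and Tmem100), out of 24538 genes counted. They were chosen by name as markers of these cell types, with earlier results of these data known, and all 10 passed the filter on low counts. The tested libraries came from lung metastases grown from E0771-LG, a line of mouse breast cancer cells, and were set against libraries of normal lung, with 5 libraries in each group. Per the labels, all mice were wild type C57BL6/J with an age tag of 8 to 10 weeks. Females aged 6 to 8 weeks had received the tumour cells through the tail vein, and the metastases, under 1 mm across, were cut out and combined from 2 to 4 mice, while normal lungs went through the same steps in parallel. In both groups lungs were perfused and digested with Liberase for 30 min in the presence of the transcription inhibitors alpha-amanitin and actinomycin D, and live cells with CD31 and without CD45 on their surface were sorted for amplified RNA-seq. CD31 (Pecam1) marks endothelium and CD45 (Ptprc) marks white blood cells, so the gate collects endothelium of every kind.

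The alveolar wall holds a mosaic of both capillary cell types. Aerocytes are large, thin cells with many pores that lie against the alveolar type 1 cell and serve gas exchange, while general capillary cells regulate vessel tone and act as stem cells that renew capillaries and give rise to aerocytes. Car4, a membrane-anchored carbonic anhydrase, is a widely used marker of aerocytes, and general capillary cells carry receptors such as Glp1r and Kit.

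Gene counts ranged between 21677429 and 54266459 in metastases and between 41004704 and 79710581 in normal lung, and the lowest count of any of the 10 genes in any library was 81. Libraries 1 and 2 of both groups had 1.45 to 4.61% of gene counts in Rn45s, a ribosomal RNA precursor, against 0.408 to 1.24% in libraries 3 to 5, so results are also given within each set. Pecam1 ranged between 146 and 1402 CPM in metastases and between 1839.5 and 3922 CPM in normal lung, where CPM stands for counts-per-million on libraries scaled by TMM. Cdh5, the cadherin of endothelial junctions, ranged between 304 and 2342 CPM in metastases and between 3845 and 9410 CPM in normal lung. Pecam1 had a log2 fold change of -1.91 and Cdh5 of -2.18 (adjusted p = 0.00549 and 0.00117, edgeR). In such bulk samples, fewer cells of a type and less RNA per cell cannot be told apart.

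Relative to all genes (TMM scaling), both sets of markers were lower in metastases. By edgeR's quasi-likelihood test, with p-values adjusted across all tested genes by Benjamini and Hochberg, 9 of the 10 genes passed the threshold of 0.05, 6 of 7 for aerocytes and 3 of 3 for general capillary cells, all lower. Over all 11823 genes tested, 972 (8.22%) were called lower. The same 9 genes had every metastasis library below every normal library, as did 729 (6.17%) of all tested genes. The median log2 fold change was -2.85 for the aerocyte genes, -2.81 for the general capillary genes and 0.06 for all tested genes.

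**Figure D1:**
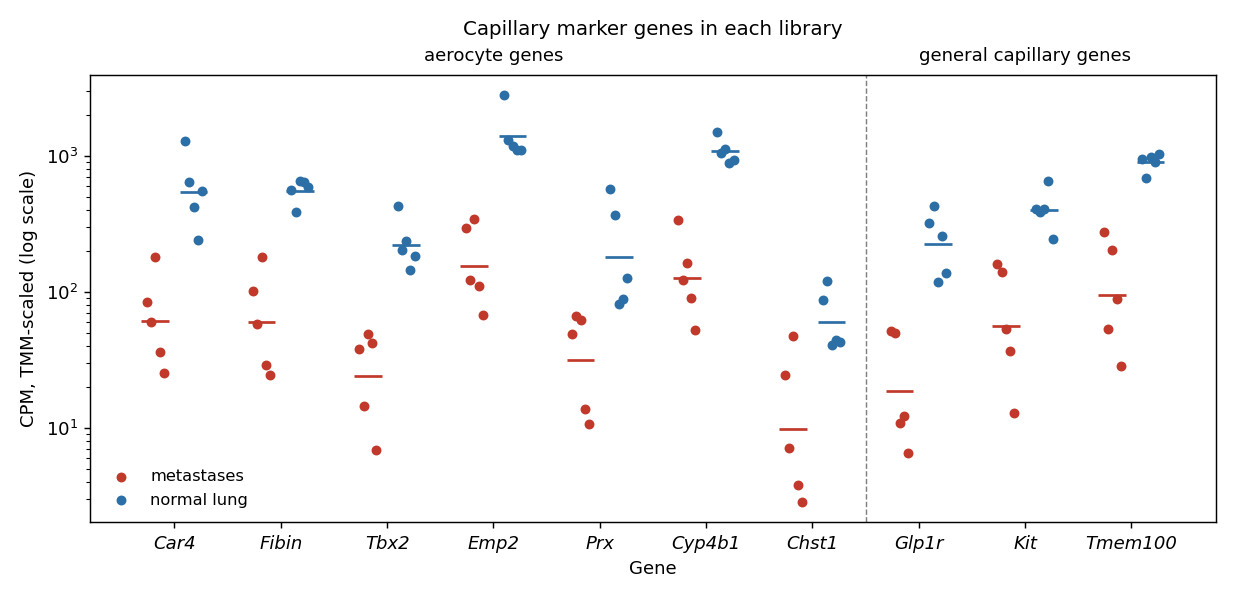
CPM of the 10 marker genes on a log axis, with 1 point per library, metastases (red) left of normal lung (blue), and a bar at the geometric mean of 5 libraries. In 9 genes all red points lie below all blue points, and in Chst1 the groups overlap.

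The aerocyte gene Car4 (chromosome 11, bases 84957786 to 84966044, plus strand, GRCm38 as for all positions) hydrates carbon dioxide at the capillary surface. Its log2 fold change had the largest size among the 7 aerocyte genes, close to those of Tbx2 and Emp2. Car4 had 84.2, 60.5, 182, 36.3 and 25.5 CPM in metastasis replicates 1 to 5, against 1294, 641, 421, 241 and 552 CPM in normal lung replicates 1 to 5. The groups did not overlap, and the highest metastasis library, replicate 3, stayed under the lowest normal one, replicate 4. Means were 77.7 ± 62.7 CPM in metastases and 629.8 ± 401 CPM in normal lung (SD, n = 5 each), a log2 fold change of -3.02 ± 0.53 (SE; adjusted p = 0.0003, edgeR).

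Emp2 (chromosome 16, bases 10281749 to 10313968, minus strand) encodes a tetraspan membrane protein that is also made by alveolar type 1 cells. It had 297, 123, 347, 110 and 67.8 CPM in metastasis replicates 1 to 5, against 2807, 1305, 1177, 1105 and 1110.1 CPM in normal lung replicates 1 to 5. Normal lung replicate 1 stood far above the other normal libraries, which were close together, and all metastasis libraries were under all of them. The log2 fold change was -2.99 ± 0.46 (adjusted p = 7.02e-05, edgeR).

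Fibin (chromosome 2, bases 110360917 to 110363183, minus strand) encodes a secreted protein known in zebrafish for a role in starting the pectoral fin bud. It had 102, 57.8, 180, 29.2 and 24.6 CPM in metastasis replicates 1 to 5, against 560, 388, 659, 640 and 590 CPM in normal lung replicates 1 to 5. The normal libraries were tight, while the metastasis libraries spread over a 7.29-fold range without reaching them. Fibin was lower by a log2 fold change of -2.85 ± 0.49 (adjusted p = 0.000236, edgeR).

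Tbx2 (chromosome 11, bases 85832551 to 85841948, plus strand), a T-box transcription repressor, ranged between 6.87 and 48.9 CPM in metastases and between 144 and 430 CPM in normal lung, with a log2 fold change of -3.00 ± 0.55 (adjusted p = 0.000458, edgeR). Cyp4b1 (chromosome 4, bases 115624725 to 115647723, minus strand), a cytochrome P450 of lung, ranged between 52.8 and 341 CPM in metastases and between 894 and 1512 CPM in normal lung, with a log2 fold change of -2.84 ± 0.44 (adjusted p = 7.5e-05, edgeR). Neither gene had a metastasis library within the range of normal lung.

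Prx (chromosome 7, bases 27499324 to 27520214, plus strand) encodes periaxin, a scaffold protein first known from Schwann cells. It had 49.1, 66.6, 62.7, 13.9 and 10.6 CPM in metastasis replicates 1 to 5, against 575, 371, 82.3, 88.1 and 126 CPM in normal lung replicates 1 to 5. Normal lung replicates 1 and 2 were well above replicates 3 to 5, and the gap between the groups was narrow. The log2 fold change was -2.61 ± 0.63 (adjusted p = 0.00438, edgeR), but -1.78 within libraries 3 to 5 (adjusted p = 0.140). Exons of Prx share 270 bases with the antisense gene Gm15541, and whether the counting used strand is not given in the sources used here.

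Chst1 (chromosome 2, bases 92599707 to 92615250, plus strand), a sulfotransferase that acts on keratan sulfate, was the gene that missed the threshold. It had 24.6, 7.12, 47.3, 3.83 and 2.86 CPM in metastasis replicates 1 to 5, against 87.7, 120, 40.9, 44.2 and 42.8 CPM in normal lung replicates 1 to 5. Metastasis replicate 3 lay among the normal libraries and the other metastasis libraries lay below them. The log2 fold change was -1.97 ± 0.79 (adjusted p = 0.0824, edgeR). Without metastasis replicate 3 it was -2.81 (adjusted p = 0.0136), and on log2(FPKM + 1) values it was -2.36 (adjusted p = 0.0126, limma). Most other alternatives left Chst1 uncalled. Without metastasis replicates 4 and 5 it was -1.39 (adjusted p = 0.279, edgeR), and in libraries 3 to 5 alone -1.26 (adjusted p = 0.465). With libraries scaled to 18 pan-endothelial genes, set out below, it was 0.32 (adjusted p = 0.761, edgeR).

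Among the general capillary genes, Glp1r (chromosome 17, bases 30901817 to 30940791, plus strand) encodes the receptor of the gut hormone glucagon-like peptide 1. It had 51.3, 50.3, 10.9, 12.3 and 6.49 CPM in metastasis replicates 1 to 5, against 323, 430, 119, 259 and 137 CPM in normal lung replicates 1 to 5. Metastasis replicates 1 and 2 were the highest of their group and still below every normal library. The log2 fold change, -3.27 ± 0.61 (adjusted p = 0.000531, edgeR), had the largest size among the 10 genes.

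Kit (chromosome 5, bases 75574916 to 75656722, plus strand) encodes the receptor tyrosine kinase of stem cell factor. It had 160, 139, 53.2, 36.6 and 12.9 CPM in metastasis replicates 1 to 5, against 408, 388, 407, 655 and 245 CPM in normal lung replicates 1 to 5. Again metastasis replicates 1 and 2 were highest and replicate 5 lowest, with no overlap. Kit was lower by a log2 fold change of -2.39 ± 0.54 (adjusted p = 0.00252, edgeR). Mast cells also carry Kit, and carry CD45, which the gate selects against. Of 7 mast cell genes, Tpsb2, Mcpt4, Fcer1a and Cma1 had no count in any library, and Cpa3 and Ms4a2 reached at most 0.0353 and 0.106 CPM, both in metastasis replicate 5. Hdc, the remaining gene, which other cells also make, was called higher in metastases and set the summed level of the list, 12.3 to 178 CPM in metastases and 0.291 to 3.42 CPM in normal lung. Their part in the Kit values was not tested.

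Tmem100 (chromosome 11, bases 90030348 to 90036508, plus strand) encodes an endothelial membrane protein induced by bone morphogenetic protein signalling. It had 277, 53.7, 204, 89.4 and 28.3 CPM in metastasis replicates 1 to 5, against 954, 693, 984, 899 and 1042 CPM in normal lung replicates 1 to 5. Its normal libraries were the tightest of the 10 genes, with a coefficient of variation of 14.6%, and the metastasis libraries differed among themselves by 9.76-fold. The log2 fold change was -2.81 ± 0.49 (adjusted p = 0.000283, edgeR).

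To show the sequence from which these genes are read, upstream sequence of the aerocyte genes Car4 and Emp2 and of the general capillary genes Glp1r and Kit is printed 5′ to 3′ on the strand of the gene, from RefSeq (GRCm38.p6), up to the RefSeq start or, where it comes first, the start of the gene in GENCODE M21. These are chr11:84957504-84957753 (plus) for Car4, chr16:10313969-10314218 (minus) for Emp2, chr17:30901617-30901816 (plus) for Glp1r and chr5:75574737-75574915 (plus) for Kit. Capitals mark GGAAG or its reverse complement CTTCC, core letters bound by ETS factors, the transcription factor family that includes the endothelial regulators Erg and Fli1.
Car4: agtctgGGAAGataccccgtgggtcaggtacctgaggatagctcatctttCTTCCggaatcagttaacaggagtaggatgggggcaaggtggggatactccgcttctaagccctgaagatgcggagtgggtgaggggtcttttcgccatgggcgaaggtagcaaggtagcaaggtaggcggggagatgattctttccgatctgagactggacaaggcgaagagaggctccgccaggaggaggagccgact
Emp2: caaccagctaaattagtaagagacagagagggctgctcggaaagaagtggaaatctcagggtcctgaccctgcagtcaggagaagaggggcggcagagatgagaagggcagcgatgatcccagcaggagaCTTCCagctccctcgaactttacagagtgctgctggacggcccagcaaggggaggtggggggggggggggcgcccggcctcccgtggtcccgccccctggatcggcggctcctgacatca
Glp1r: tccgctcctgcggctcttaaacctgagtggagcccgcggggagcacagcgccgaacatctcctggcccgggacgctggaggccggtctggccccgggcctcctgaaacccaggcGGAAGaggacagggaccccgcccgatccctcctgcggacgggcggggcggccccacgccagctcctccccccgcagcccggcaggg
Kit: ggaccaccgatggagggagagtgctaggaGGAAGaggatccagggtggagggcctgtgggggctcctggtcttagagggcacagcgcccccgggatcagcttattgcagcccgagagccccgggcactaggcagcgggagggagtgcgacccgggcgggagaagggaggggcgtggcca

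Windows of 250 bases before the RefSeq start were at hand for 8 of the 10 genes, Tbx2 and Tmem100 being without one. By GENCODE M21, which places some starts earlier, 250 bases of the Chst1 window and 190 of the Fibin window lie inside the gene, as do 71 for Kit, 50 for Glp1r and 2 for Cyp4b1. GGAAG or CTTCC stood in 7 of these 8, Cyp4b1 being the exception, and in 64.1% of 32851 windows of the same length. Leaving out Chst1 and Fibin, it stood in 5 of 6. ACAAT or ATTGT, core letters of SOX factors, stood in 1 of 8 (Cyp4b1) and in 27.7% of all windows. CACCC or GGGTG, core letters of KLF factors, stood in 5 of 8 and in 52.0% of all windows, and GGTGTG or CACACC, core letters of T-box factors, in 1 of 8 (Cyp4b1) and in 16.3%. The last pair of words can overlap the KLF letters. These matches describe letters only, and both capillary types had ETS letters.

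Whether aerocyte genes fell more or less than general capillary genes was tested with libraries scaled to the mean log2 count of Glp1r, Kit and Tmem100. On this scale, over all 10 libraries, 0 of 7 aerocyte genes passed the threshold with edgeR, 0 had an unadjusted p under 0.05, and DESeq2 also called 0. The scaling moved the median of all tested genes to 3.61 and called 71.8% of them, 8483 higher and 2 lower, so the aerocyte genes are read against the general capillary genes and not against zero change in the cell. Log2 fold changes relative to general capillary genes were 0.18 for Car4 (95% interval -1.31 to 1.67), 0.23 for Fibin (-1.23 to 1.70), 0.22 for Tbx2 (-1.52 to 1.96) and 0.18 for Emp2 (-1.12 to 1.49). They were 0.14 for Cyp4b1 (-1.15 to 1.44), 0.49 for Prx (-1.25 to 2.23) and 1.07 for Chst1 (-1.06 to 3.21). Adjusted p ranged between 0.353 for Chst1 and 0.837 for Cyp4b1. The intervals include no difference and also differences of more than 1 log2 unit in either direction, so equal loss of both cell types was not shown. The values had opposite signs in the sets of libraries, a difference that did not pass its test. In libraries 1 and 2 alone the values were -1.40 for Car4, -0.28 for Fibin, -1.38 for Tbx2, -1.06 for Emp2, -0.56 for Prx, -0.27 for Cyp4b1 and -0.56 for Chst1. In libraries 3 to 5 alone they were 1.02 for Car4, 0.40 for Fibin, 0.88 for Tbx2, 0.82 for Emp2, 1.67 for Prx, 0.37 for Cyp4b1 and 1.98 for Chst1. None was called in either set, and in the test of the difference between the sets 0 of 7 aerocyte genes were called, with 0 at an unadjusted p under 0.05. The nearest was Emp2, at -1.88 ± 0.95 (SE; adjusted p = 0.344, edgeR interaction term).

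**Figure D2:**
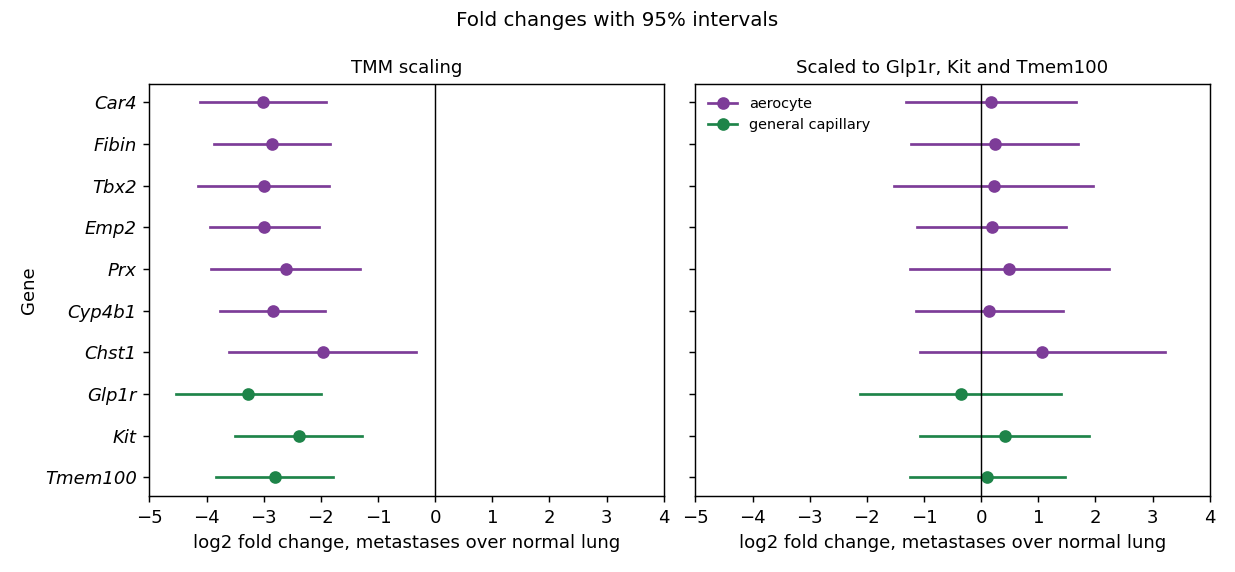
Log2 fold changes of metastases over normal lung with 95% intervals, left with TMM scaling and right with libraries scaled to Glp1r, Kit and Tmem100 (aerocyte genes purple, general capillary genes green). On the left all 10 points lie between -3.27 and -1.97, and on the right every interval of an aerocyte gene spans 0.

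Library by library, the balance of the types varied within each group. The mean log2(CPM + 1) of the 7 aerocyte genes minus that of the 3 general capillary genes was -0.57, -0.66, 1.19, -0.15 and 0.39 in metastasis replicates 1 to 5, against 0.44, -0.15, -0.21, -1.02 and -0.03 in normal lung replicates 1 to 5. Metastasis replicate 3 stood toward the aerocyte side and normal lung replicate 4 toward the general capillary side, and the groups overlapped. Means were 0.04 ± 0.77 in metastases and -0.19 ± 0.53 in normal lung (SD, n = 5 each), a difference of 0.23, smaller than either SD. Without metastasis replicate 3 the difference was -0.05. Among the 21 pairs of 1 aerocyte and 1 general capillary gene, the log2 ratio averaged higher in metastases in 16 and lower in 5, the differences ranged between -0.39 and 1.06, and in 0 pairs did the groups separate. The pairs share genes and libraries and are not independent.

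**Figure D3:**
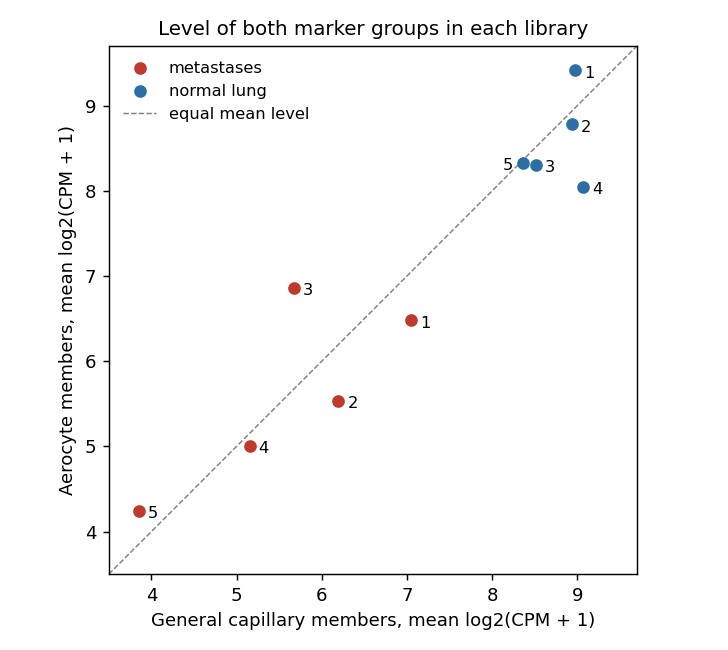
Mean log2(CPM + 1) of the 7 aerocyte genes against that of the 3 general capillary genes, with 1 numbered point per library (metastases red, normal lung blue) and a dashed line where both means are equal. Metastases lie at lower levels on both axes, and points of both groups lie on both sides of the line.

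The metastasis libraries differed in how much of each type's signal they held. As a percent of the normal lung mean, the median aerocyte gene stood at 19.8, 10.2, 25.2, 5.76 and 4.28% in metastasis replicates 1 to 5. The median general capillary gene stood at 30.3, 19.8, 12.7, 8.69 and 3.06%, and the median of 18 pan-endothelial genes at 33.5, 22.6, 20.7, 8.84 and 7.51%. Replicates 4 and 5 were lowest in all 3 medians, replicate 3 was highest for aerocyte genes, and replicate 1 was highest for general capillary and pan-endothelial genes. In replicate 3 Chst1 reached 70.5% of the normal mean and Car4 28.9%, but Glp1r 4.30%. In replicates 1 and 2 the highest gene was Kit, at 38.0 and 33.2%.

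**Figure D4:**
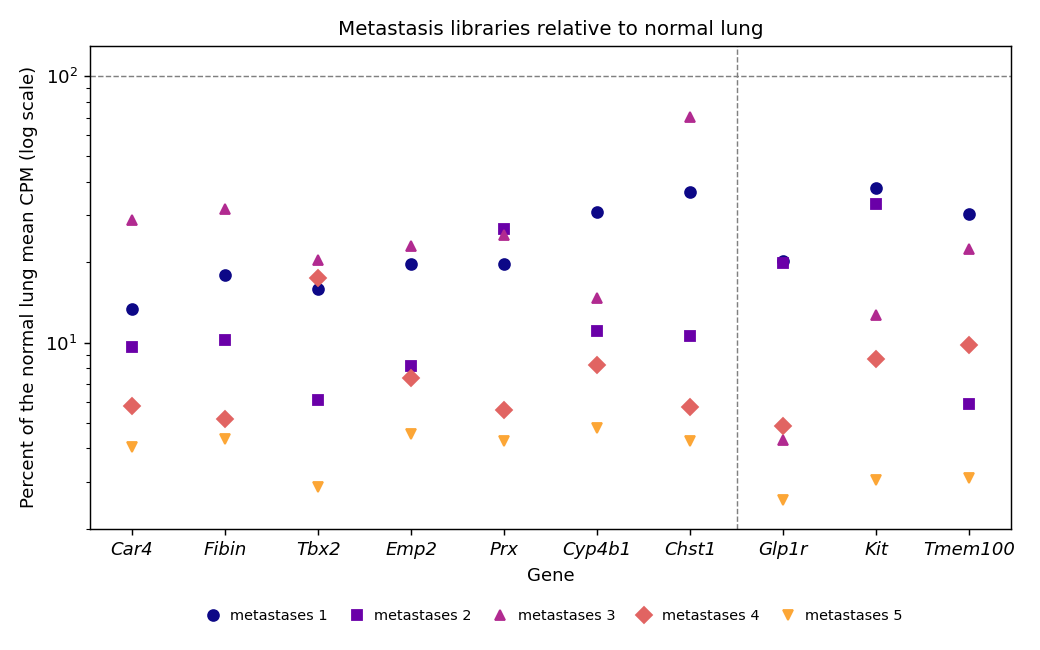
Level of each gene in each metastasis library as a percent of the mean CPM of 5 normal lung libraries, on a log axis, with 1 symbol per library and a dashed line at 100 percent. Replicate 5 lies lowest in every gene, and replicate 3 is high for Chst1, Fibin and Car4 and low for Glp1r.

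Most of the genes were lower within each set of libraries too. In libraries 1 and 2 alone 8 of the 10 genes were called lower (1.60% of all genes tested there), and in libraries 3 to 5 alone also 8 (6.39%). Car4 had a log2 fold change of -3.72 in libraries 1 and 2 and -2.33 in libraries 3 to 5 (adjusted p = 0.000446 and 0.038, edgeR). Kit had -1.39 in libraries 1 and 2, where it was not called (adjusted p = 0.218, edgeR), and -3.69 in libraries 3 to 5 (adjusted p = 0.00235). The difference between the sets was 2.26 ± 0.82 for Kit (SE; unadjusted p = 0.0107, adjusted p = 0.414, edgeR interaction term). No tested gene passed adjustment in that interaction, while 1103 had an unadjusted p under 0.05.

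Per transcript length, genes can be set beside one another. In the authors' FPKM values (fragments scaled by transcript length and sequencing depth), the order of group means was the same in metastases and in normal lung: Cyp4b1, Car4, Tmem100, Emp2, Fibin, Glp1r, Tbx2, Prx, Kit and Chst1. Cyp4b1 averaged 112 ± 84.0 FPKM in metastases and 811 ± 114 FPKM in normal lung (SD, n = 5 each). Chst1 averaged 12.9 ± 15.0 FPKM in metastases and 44.6 ± 14.8 FPKM in normal lung. Among neighbours in this order, Emp2 was above Fibin in 5 of 5 libraries of both groups, and Glp1r was above Tbx2 in 3 of 5 metastasis libraries and in 5 of 5 normal ones. Every other pair of neighbours changed places in at least 1 library of each group. In metastases Tmem100 was above Emp2 in only 2 of 5 libraries, and Prx above Kit in only 2 of 5, against the order of means. Summed FPKM of the aerocyte genes were 2.20 to 4.94 times those of the general capillary genes in metastases and 2.15 to 4.07 times in normal lung, ranges that overlap. Prx overlapped between groups on this scale, with 31.5 FPKM in metastasis replicate 3 against 28.8 FPKM in normal lung replicate 3.

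**Figure D5:**
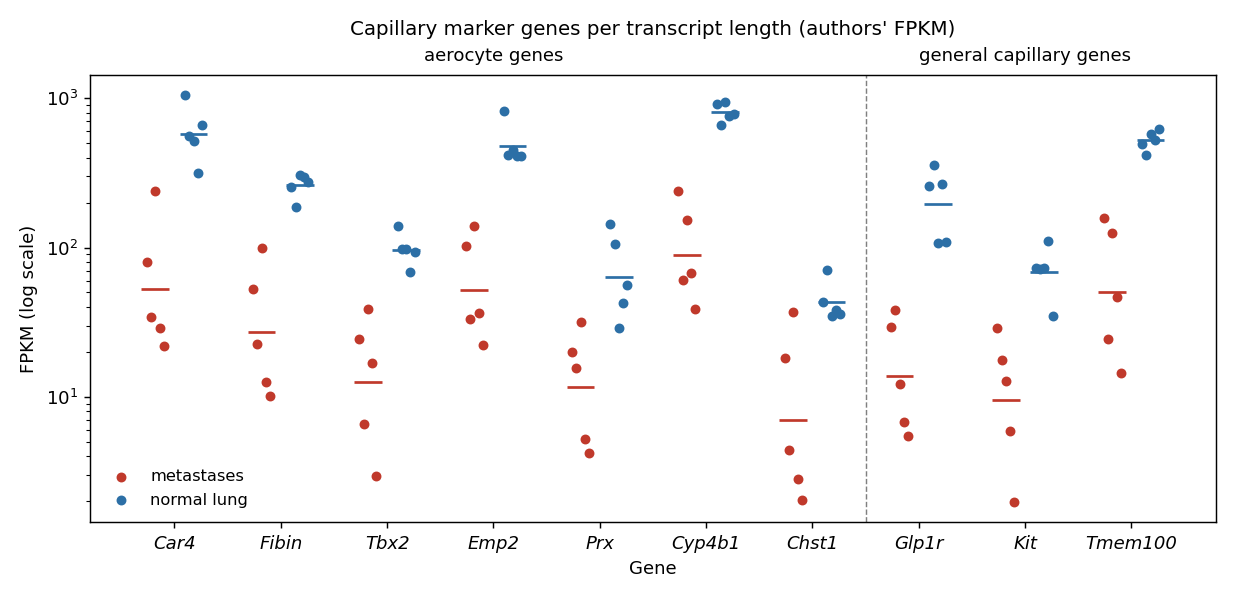
The authors' FPKM of the 10 genes on a log axis, with 1 point per library, metastases (red) left of normal lung (blue), and a bar at the geometric mean. Cyp4b1 and Car4 have the highest means in both groups and Chst1 the lowest, and points overlap between groups in Prx and Chst1.

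The fall was set against that of 18 pan-endothelial genes. Of these, 15 were called lower and 0 higher, with a median log2 fold change of -2.40, beside 8.22% of all tested genes called lower. Erg, Fli1 and Ramp2 were not called, and Fli1, an ETS factor that leukocytes also make, ranged between 27.8 and 283 CPM in metastases and between 93.5 and 142 CPM in normal lung. With libraries scaled to these 18 genes, 0 of the 10 capillary genes were called, and 59.8% of all tested genes were, around a median of 2.74. The median log2 fold change on that scale was -0.48 for aerocyte genes and -0.51 for general capillary genes. Glp1r, at -0.95 ± 0.71, was farthest from 0 (adjusted p = 0.238, edgeR), Chst1 alone was above 0, at 0.32, and 0 of 10 had an unadjusted p under 0.05. A change of these capillary markers beyond that of the 18 genes was thus not detected. SEs on that scale ranged between 0.47 for Emp2 and 0.90 for Chst1, so such a change was also not excluded.

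Further genes of both types moved likewise over all 10 libraries. In libraries 1 and 2 alone only 3 of them were called lower (1.60% of all genes tested there). Over all 10 libraries, 6 of 7 other aerocyte genes were called lower and 0 higher (median log2 fold change -2.47). Of all tested genes, 8.22% were called lower in that fit. Kdr, the main receptor of vascular endothelial growth factor, averaged 380 ± 257 CPM in metastases and 2487 ± 651 CPM in normal lung (SD, n = 5 each; log2 fold change -2.71, adjusted p = 8.78e-05, edgeR). Ednrb, an endothelin receptor, had a log2 fold change of -2.63 (adjusted p = 0.00101), and its 938 CPM in metastasis replicate 3 again exceeded the 76.0 to 314 CPM of the other metastasis libraries. Log2 fold changes were -2.15 for Apln, the ligand apelin, -2.47 for Nckap5, -5.20 for Cdkn2b, a cell cycle inhibitor, and -1.61 for Sirpa, the receptor of CD47, and of these Apln and Sirpa turned positive, uncalled, with pan-endothelial scaling. The call of Sirpa was lost without metastasis replicate 4 (-1.53, adjusted p = 0.0599) or normal lung replicate 1 (-1.26, adjusted p = 0.115). Rprml was not called and had 28.7 CPM in metastasis replicate 3, at most 0.212 CPM in the other metastasis libraries and 0.235 to 3.20 CPM in normal lung.

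Of 8 other general capillary genes, 7 were called lower and 0 higher (median log2 fold change -2.15), beside 8.22% of all tested genes called lower. Log2 fold changes were -2.51 for Aplnr, the apelin receptor, -2.84 for Gpihbp1, which carries lipoprotein lipase to the capillary lumen, and -2.43 for Tek, the angiopoietin receptor. It was -2.04 for Ptprb, a phosphatase that acts on Tek, -2.25 for Sema3c, -1.61 for Cd93 and -1.95 for the chemokine Cxcl12. Aplnr, Plvap, Ptprb, Cd93 and Cxcl12 turned positive, uncalled, with pan-endothelial scaling. The call of Cxcl12 was lost without metastasis replicate 5 (-1.72, adjusted p = 0.0508) or normal lung replicate 2 (-1.85, adjusted p = 0.0507). Plvap, the diaphragm protein of fenestrated vessels, had 72.4 CPM in metastasis replicate 2, 5.25 to 20.6 CPM in the other metastasis libraries and 23.1 to 168 CPM in normal lung. It was not called (log2 fold change -2.00, adjusted p = 0.0777, edgeR), but was without metastasis replicate 2 (-3.15, adjusted p = 0.00871).

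Genes with the closest profile over the 10 libraries were found by the mean absolute difference of centred log2 CPM. For Car4 these were Glis3 (0.330 log2 units), Smad6 (0.335), Emp2 (0.335), Sept4 (0.365) and Rgs12 (0.386). For Glp1r they were Slc43a3 (0.429), Cyb561 (0.442), Galnt18 (0.448), Pitpnm2 (0.456) and Ace (0.469). Closeness over all 10 libraries includes the difference between the groups. Of the marker genes, Emp2 ranked 3 by likeness to Car4 among all tested genes, Fibin 25, Prx 32, Cyp4b1 38, Tbx2 47 and Chst1 53, ahead of Tmem100 at 208, Glp1r at 482 and Kit at 727. Kit ranked 32 by likeness to Glp1r, ahead of all aerocyte genes, of which Cyp4b1 was nearest at 85, while Tmem100 ranked 363, behind 6 of the 7 aerocyte genes. These ranks describe 10 shared libraries and carry no test.

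Other cells that could lend these transcripts were measured in the same libraries. Alveolar type 1 genes summed to 148 to 1073 CPM in metastases and 1859 to 2364 CPM in normal lung. Of the 8 listed, 4 passed the filter and were tested, with 2 called lower and 0 higher. Those called were Clic5, which endothelium also makes, at 86.8 to 960.1 CPM in metastases and 1745 to 2288 CPM in normal lung, and Hopx, at 5.34 to 35.7 CPM in metastases and 71.5 to 90.6 CPM in normal lung. Aqp5 was at 0 in all libraries, and Ager reached 0.523 CPM in metastases and 1.70 CPM in normal lung. Akap5 held 38.8 to 56.6 CPM in metastases and 0.61 to 27.9 CPM in normal lung, and Rtkn2, Cldn18 and Pdpn reached 13.8, 13.1 and 10.8 CPM in metastases and 0.365, 3.93 and 0.027 CPM in normal lung. Their part in the Emp2 values was not tested. Club cells, which make Cyp4b1, were marked by Scgb1a1 at 3.40 to 7.10 CPM in metastases and 3.57 to 752 CPM in normal lung. The 6 genes of the club cell list summed to 3.92 to 27.9 CPM in metastases and 3.94 to 869.8 CPM in normal lung. Of the 3 club cell genes tested, 2 were called lower. Normal lung replicates 3 and 5 held the high values of Scgb1a1, with 752 and 558 CPM, and Cyp4b1 was 1132 and 938 CPM there, within the range of the other normal libraries. Without both libraries, a choice made after seeing the data, the log2 fold change of Cyp4b1 was -2.91 (adjusted p = 0.000592, edgeR). The part of club cells in the Cyp4b1 values was not tested.

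Genes of other vessel types gave mixed counts. Of 8 arterial genes 4 were called lower and 1 higher (12.0% of all tested genes were called higher), summing to 106 to 291 CPM in metastases and 807 to 1524 CPM in normal lung. Venous genes summed to 109 to 839 CPM in metastases and 83.1 to 923 CPM in normal lung. Of 8 listed, 7 were tested and 1 called lower, and Ackr1 was at 0 in all libraries. Lymphatic genes summed to 169 to 2340 CPM in metastases and 1086 to 1878 CPM in normal lung. Of 7 listed, 4 were tested, with 1 called lower and 1 higher. Lyve1 held the largest share of the lymphatic sum except in metastasis replicate 2, where it had 259 CPM against 297 CPM of Mmrn1. Mmrn1 was the gene called higher, at 33.5 to 565 CPM in metastases and 10.4 to 68.3 CPM in normal lung. Prox1, the factor that defines lymphatic cells, reached 1.32 CPM in metastases and 7.98 CPM in normal lung.

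Some genes of other cells were higher in metastases. Fibroblast genes summed to 342 to 927 CPM in metastases and 6.13 to 62.2 CPM in normal lung. Of 8 listed, 6 were tested and 5 called higher, and Tcf21 was at 0 in all libraries. Leukocyte genes summed to 407 to 1581 CPM in metastases and 57.6 to 238 CPM in normal lung (7 listed, 6 tested, 3 higher). Alveolar macrophage genes summed to 6.26 to 419.8 CPM in metastases and 2.83 to 223 CPM in normal lung (8 listed, 4 tested, 2 higher). Alveolar type 2 genes summed to 467 to 1547 CPM in metastases and 19.7 to 199 CPM in normal lung (3 of 7 higher), led by Lyz2, which macrophages share. Also called higher were Slc34a2, at 8.36 to 153 CPM in metastases and 0.245 to 23.0 CPM in normal lung, and Lamp3, at 12.7 to 100.5 CPM in metastases and 1.61 to 15.6 CPM in normal lung. Sftpb, not called, held 1.14 to 97.9 CPM in metastases and 0.276 to 11.6 CPM in normal lung, and Sftpc, not called, reached 14.9 CPM in metastases and 11.7 CPM in normal lung. Mammary tumour epithelial genes summed to 9.73 to 52.8 CPM in metastases and 1.11 to 13.2 CPM in normal lung (7 listed, 2 tested, 1 higher). Cell division genes summed to 1340 to 2636 CPM in metastases and 21.7 to 119 CPM in normal lung, and 8 of 8 were called higher. The part of these cells in the lower levels of the capillary genes was not tested.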

How the data were processed

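RNA-seq of sorted cells was read from 10 libraries, 5 per group. Per the submitters' processing notes, the tools were HTSeq 0.6.1, TopHat2 2.0.13, DESeq2 1.6.3 and Cufflinks 2.2.1, with mm10 and GRCm38. Annotation and strand setting: not given in the sources used here. The deposited counts are whole reads per gene made by the authors. Of their tallied reads, 57.9 to 73.7% in metastases and 55.4 to 64.7% in normal lung fell in no gene. The 57.9% belonged to metastasis replicate 2, and the other metastasis libraries had 71.8% or more. The effect of this difference on the results was not tested. The authors also deposited FPKM for 24460 genes, used for levels between genes.

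The 10 genes and the lists were chosen with earlier results of these data known. The default filterByExpr filter kept 11823 genes, which were tested with edgeR 4.0.16 in R 4.3.3 (TMM, robust quasi-likelihood F test, two-sided, no covariate), Benjamini-Hochberg adjusted across them at a threshold of 0.05. A second fit scaled libraries to Glp1r, Kit and Tmem100. SEs were taken as the size of the log2 fold change divided by the root of F. The common biological coefficient of variation was 1.01. The fits were also run on simulated counts in which Glp1r, Kit and Tmem100 did not change, unlike in the data. That run therefore cannot check the fit scaled to these genes. Nothing in the labels says that normal lungs came from separate mice, so p-values measure the spread between these samples. Named are the 10 genes, the other genes of both types, Pecam1 and Cdh5, the most abundant gene of each cell list, and the 5 genes most like Car4 and Glp1r. Others that complete a count or mark a cell type were chosen with values known. GENCODE M21 gave the positions. Alternatives were DESeq2 1.42.0, other filters and scalings, limma 3.58.1 on log2 FPKM, the replicate number as a block, library sets and leaving out libraries. Leaving out normal lung replicates 3 and 5, and the interaction terms, were chosen after seeing the data. Plots used matplotlib 3.10.9 (Python 3.11.15).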

Additional observations from a re-analysis of the deposited data

Results flagged for a closer look

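Emp2 had 2807 CPM in normal lung replicate 1, a library far from the other 4 of its group. The gap to the nearest other library was 0.882 of the range of the group, above the critical value of 0.710 for 5 samples. This was 1 of 22 groups of values examined, and chance flags about 1 group in 20. Without normal lung replicate 1 Emp2 was still called lower in metastases.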

How the results depend on the processing

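Across the alternatives run, 8 to 10 of the 10 genes were called lower in metastases, except under scaling to the 18 pan-endothelial genes, where 0 were. Leaving out 1 library at a time gave 9 to 10. The share of all tested genes called lower is at hand for the main fit (8.22%), libraries 1 and 2 (1.60%) and libraries 3 to 5 (6.39%). For the other alternatives it is not, so their counts cannot be set against it. Aerocyte genes called relative to general capillary genes numbered 0 under every alternative run, with a smallest adjusted p of 0.0913. Of the 15 other capillary genes, 13 were called, 12 to 14 with 1 library left out, 3 in libraries 1 and 2 only, and 0 with pan-endothelial scaling. Why fewer were called in libraries 1 and 2 was not tested. The mean difference between the types ranged between -0.05 and 0.41 with 1 library left out. Pan-endothelial scaling, which by its construction centres these endothelial genes, turned the log2 fold change of Chst1 to 0.32, Apln to 0.34, Sirpa to 1.20, Aplnr to 0.16, Plvap to 0.41, Ptprb to 0.11, Cd93 to 0.60, Cxcl12 to 0.69, Pecam1 to 0.39, Cdh5 to 0.23 and Ace to 0.013. Rprml had 1.58 and rested on metastasis replicate 3: it ranged between -4.91 and 1.92 with 1 library left out, and was -8.08 in libraries 1 and 2 only, -1.09 on log2(FPKM + 1) with and without a filter and -2.66 on log2(FPKM + 0.1).

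Relative to general capillary genes, uncalled aerocyte values changed sign under several alternatives. In libraries 1 and 2 only they were -1.40 for Car4, -0.28 for Fibin, -1.38 for Tbx2, -1.06 for Emp2, -0.56 for Prx, -0.27 for Cyp4b1 and -0.56 for Chst1, while in libraries 3 to 5 only all 7 stayed positive, between 0.37 and 1.98. Scaled to Kit alone they were -0.21 for Car4, -0.048 for Fibin, -0.095 for Tbx2, -0.14 for Emp2, -0.022 for Prx and -0.19 for Cyp4b1. Without metastasis replicates 4 and 5 they were -0.16 for Tbx2 and -0.023 for Cyp4b1, and with a term for libraries 1 and 2 -0.0036 for Tbx2. With 1 library left out Car4 ranged between -0.37 and 0.50, Fibin between -0.33 and 0.41, Tbx2 between -0.15 and 0.45, Emp2 between -0.15 and 0.44 and Cyp4b1 between -0.0045 and 0.28. The cause of these shifts was not tested.

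Deviations of same-numbered libraries correlated at -0.0081 to 0.18 across genes, and 2 of 5 metastasis libraries correlated best with their own number. Such values cannot settle whether same-numbered libraries were handled together. With the replicate number as a block, 10 genes were called lower, Chst1 among them (-2.74, adjusted p = 0.0154, edgeR), and 14 of the 15 other genes were called. Adjusted p under the block was 1.01e-08 for Car4 and 9.78e-07 for Kit, against 0.0003 and 0.00252 without it (edgeR). The share of all genes called under the block is not at hand. Relative to general capillary genes, 0 aerocyte genes were called with the block. Under the block Rprml was -4.25, and relative to general capillary genes Fibin was -0.00041 and Tbx2 -0.033.

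The intervals of the difference between the types are wide, and the lowest count behind any of the 10 genes was 81. How far depth sets their width was not tested.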
